A study of Xenopus tropicalis with 3 samples.

Results

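The animal cap is the ectoderm cut from the top of a Xenopus embryo, and in Xenopus tropicalis it forms a mucus-covered, ciliated epidermis like that of the tadpole skin. This account follows 8 genes of the epidermal mucus and of goblet-type secretory cells: itln1, itln2, otog, fcgbp, muc2, agr2, msln and spdef. They were taken by gene name from a table of 17647 genes, where they fill 13 of 35047 transcript rows. All 8 were present in the table. RNA came from dissected caps, labelled as prospective epidermis, of embryos at gastrula stage NF10.5, at neurula stage NF16 and at tailbud stage NF24, where NF is the Nieuwkoop and Faber staging series. No treatment or genetic change is given in the labels, which name the groups by stage and say nothing of clutch or library batch. Each stage has 1 deposited value per transcript, in FPKM, sequenced fragments scaled to transcript length and library size, from 3 labelled biological replicates. The spread between replicates and the sequencing depth are therefore unknown, no value below has an error, and no difference between stages has a replicate check or a test.

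The outer layer of the tadpole epidermis holds goblet-type secretory cells that release a mucus of lectins and large glycoproteins, a barrier against microbes. Multiciliated cells, ionocytes and small secretory cells lie among them, having moved in from the layer beneath, and they move, condition or add to that mucus. Intelectins such as Itln1 are calcium-dependent lectins that bind sugars found on microbial surfaces. The gel-forming mucin Muc2 and the large glycoproteins Otog and Fcgbp share von Willebrand D domains, through which gel-forming mucins assemble. Agr2 is a protein disulfide isomerase of the endoplasmic reticulum that is needed for mucin folding in mouse intestine. Spdef is an ETS transcription factor that promotes goblet cell maturation in mouse airway and intestine.

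All 8 genes were at low levels at gastrula, 9.27 FPKM or less. With the exceptions of muc2 and spdef, they were among the more abundant genes of the table by tailbud. Summed over the 8 genes, the level was 19.7 FPKM at NF10.5, 2882 FPKM at NF16 and 4965 FPKM at NF24. These sums made up 0.0034%, 0.542% and 0.981% of all FPKM in the table. Of the 8 genes, msln ranked 27th, itln1 34th and itln2 43rd by FPKM among all genes at NF24. Bulk RNA of this kind cannot tell more cells of a type from more RNA per cell. The plot of levels by stage shows 6 genes far above their gastrula level at both later stages, while muc2 and spdef took other courses.

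**Figure D1:**
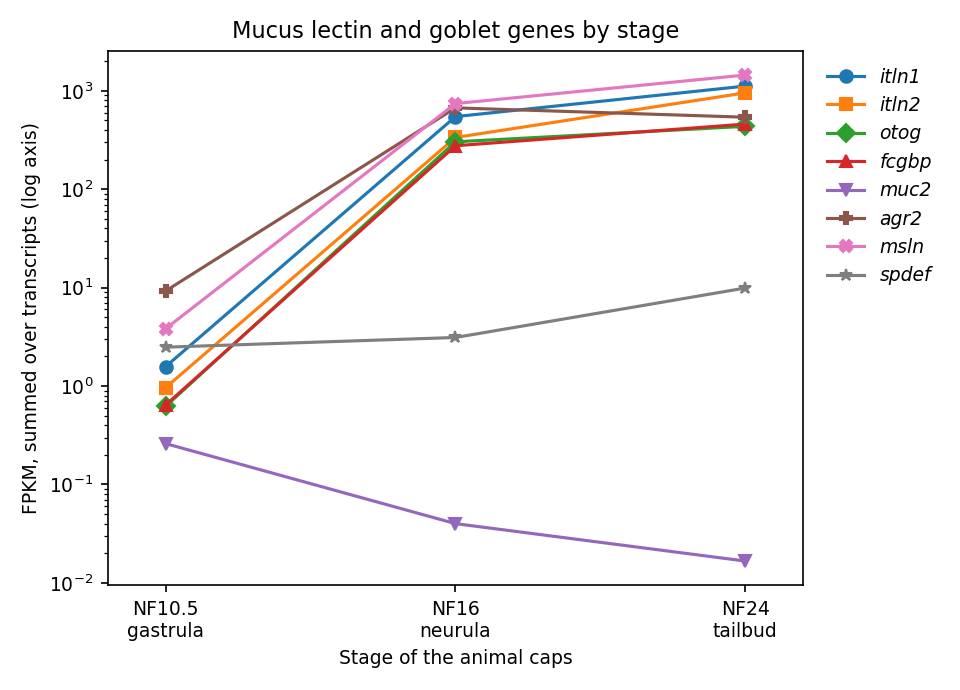
FPKM summed over the transcripts of each of the 8 genes (log axis) at the 3 stages; each point is 1 deposited value per stage, with no error available. The 6 abundant genes go from at most 9.27 FPKM at NF10.5 to at least 277 FPKM at NF16, spdef reaches 9.91 FPKM only at NF24, and muc2 stays at or below 0.26 FPKM.

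The lectin genes came from very low levels at gastrula to some of the highest of the table at tailbud. The intelectin itln1 was at 1.58 FPKM at NF10.5, 547 FPKM at NF16 and 1118 FPKM at NF24. Its relative itln2 was at 0.967, 336 and 954 FPKM in the same order. Both were lowest at gastrula and highest at tailbud. The differences between stages were taken as log2(FPKM + 1), and such a difference counts as called, higher or lower, from a size of 1 upward. On that scale itln1 was higher by 7.73 at NF16 than at NF10.5 and itln2 by 7.42. Adding 1 understates the change of genes that start below 1 FPKM, and with 0.1 added instead the same differences were 8.35 and 8.30.

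The pair then went on at unequal pace. In the later step itln1 was higher by 1.03 and itln2 by 1.50 on the log2(FPKM + 1) scale. The itln1 value lies close to the threshold and was 0.90, not called, after median-of-ratios scaling between the stages. In plain FPKM, itln1 gained 546 in the earlier step and 571 in the later one, whereas itln2 gained 335 and then 618. Relative to itln1, itln2 was accordingly at 0.612 for the gastrula, 0.614 for the neurula and 0.853 for the tailbud stage. Another intelectin of the table, LOC100485391, which the RefSeq gene table of assembly UCB_Xtro_10.0 names itln1al, stayed at or below 0.237 FPKM at all stages. Reads shared between intelectins of similar sequence may have been divided between itln1 and itln2 by the authors' counting, so their ratio is uncertain.

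The table lists 3 transcripts of itln1, and 1 of them carried nearly all of its signal. Transcript NM_203598.2 held 86.3% of the gene's FPKM at NF10.5, then 92.1% at NF16 and later 91.3% at NF24. Transcript XM_012966266.2 held most of the rest, at 0.217, 43.3 and 97.6 FPKM. The last, XM_012966265.1, was listed at 0 at NF10.5 and NF24 and at 0.107 FPKM at NF16. The same transcript thus led itln1 at every stage, and itln2 has 1 transcript in the table.

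Among the members, large glycoproteins with von Willebrand D domains split into abundant and near-absent ones. The otogelin gene otog, named for a glycoprotein of the inner ear's acellular membranes in mammals, was at 0.623 FPKM at NF10.5, 304 FPKM at NF16 and 436 FPKM at NF24. Levels of fcgbp, which encodes a mucus protein first described for binding the Fc part of IgG, were 0.643, 277 and 460 FPKM. Both genes were below 1 FPKM at gastrula and at least 277 FPKM afterwards. The log2(FPKM + 1) difference of NF16 from NF10.5 was 7.55 for otog and 7.40 for fcgbp, and 8.71 and 8.54 with 0.1 added. The later step brought 0.52 for otog and 0.73 for fcgbp, neither of which reached the threshold. Levels of the pair stayed near each other at each stage, with fcgbp relative to otog at 1.03, 0.912 and 1.05. In FPKM, most of the otog gain fell in the earlier step, 303 against 132 in the later one, and fcgbp gained 276 and then 183.

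In contrast muc2, the main secreted mucin of the mammalian intestine, was at 0.26 FPKM at NF10.5, 0.04 FPKM at NF16 and 0.0167 FPKM at NF24. It never reached 1 FPKM and was left out of the genes compared, so 7 of the 8 genes entered the comparisons. Without counts, no detection limit can be set for it. Other genes with mucin names were mostly at similar values. The secreted mucin genes muc5ac, muc6 and muc19 did not exceed 0.14 FPKM at any stage, and the row named otogl did not exceed 0.0267 FPKM. The abundant row named otog may itself stand for the otogelin-like gene otogl2, as given below. The low otogl value therefore does not show that otogelin-like products were absent. A locus the RefSeq gene table names muc22 had at most 0.19 FPKM. The locus named muc5acl was lower at each later stage, at 9.63, 5.03 and 3.52 FPKM, with a log2(FPKM + 1) difference of -1.24 between NF24 and NF10.5. Only the transmembrane mucin muc4, of those with a mucin name in the table, reached 10 FPKM, at 5.83, 88.6 and 65.8 FPKM. Its difference of NF16 from NF10.5 was 3.71. Mucin genes under identifiers without a mucin name were not searched, and muc1, muc5b, muc5e and muc13 had no row of that name. The low values above therefore do not show that mucins were absent.

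The identity of 3 entries is less certain than that of the rest. All transcripts of itln2, fcgbp, agr2 and spdef, and 2 of the 3 of itln1, matched genes of the same name by accession in the RefSeq gene table, whereas the single transcripts of otog, msln and muc2 did not. That gene table holds otog, otogl and otogl2, and which of otog and otogl2 the deposited otog row stands for cannot be settled from the names alone. No genome, promoter or protein sequence was used here.

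The msln gene encodes mesothelin, in mammals a glycoprotein held at the cell surface by a lipid anchor and known from mesothelium. It was the most abundant of the 8 genes at NF16 and NF24, at 743 and 1448 FPKM, from 3.83 FPKM at NF10.5. The log2(FPKM + 1) difference was 7.27 in the earlier step. In the later step it was 0.96, just under the threshold, and 1.03 with each stage rescaled to the same total (TPM) or 1.24 after quantile normalization. Gains in plain FPKM were 739 and 705.

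A second entry of the table, LOC100489259, carries the gene number that the RefSeq gene table assigns to msln. It was at 4.11, 800.04 and 1507 FPKM, which is 1.07, 1.08 and 1.04 times the entry named msln. Both entries therefore moved side by side at all 3 stages. If they are parts of 1 gene, or copies that share reads, msln alone is an uncertain measure of its level. With both entries added, a choice made after seeing the data, the level was 7.94 FPKM at NF10.5, 1543 FPKM at NF16 and 2955 FPKM at NF24.

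The folding enzyme gene agr2 followed a different course in the later step. It was at 9.27 FPKM at NF10.5, the highest of the 8 genes at that stage, then at 672 FPKM at NF16 and 540 FPKM at NF24. Its difference of NF16 from NF10.5 was 6.03 on the log2(FPKM + 1) scale. Between NF16 and NF24 it was -0.31, not called, and it stayed negative under every setting tried, between -0.45 and -0.20. All the other members above 10 FPKM had positive differences in this step. Accordingly agr2 made up 23.3% of the summed FPKM of the 8 genes at NF16 and 10.9% at NF24, while itln2 went from 11.7% to 19.2%.

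The relatives of agr2 differed from it in level and start. Its neighbour agr3, which encodes another Agr family isomerase and lies next to it in the RefSeq gene order, was at 0.253, 21.9 and 31.4 FPKM. The cement gland gene ag1 was already at 42.04 FPKM at NF10.5, with 178 FPKM at NF16 and 121 FPKM at NF24. Like agr2, ag1 was lower at NF24 than at NF16, with a log2(FPKM + 1) difference of -0.56, under the threshold. Both are known as genes of the Xenopus cement gland, the sticky organ in front of the mouth. Of 11 genes listed as cement gland markers, 7 were in the table. The 5 of them other than agr2 and muc2 summed to 104 FPKM at NF10.5, 226 FPKM at NF16 and 154 FPKM at NF24. At NF10.5 ag1 and dct (44.06 FPKM) made up most of this sum, and at NF16 and NF24 ag1 did. The dct product is an enzyme of melanin synthesis, and its place on this list is doubtful. The sum at NF10.5 is therefore an uncertain measure of cement gland genes. The homeobox gene pitx1 (9.25 FPKM at NF16) was higher at NF16 than at NF10.5, by 2.84, and dct differed by -2.60. No listed marker was at 0. The part of cement gland cells in the agr2 level was not tested.

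Of the transcripts listed for agr2, XM_012964714.2 held 91.4% of the gene's FPKM at NF10.5, then 98.9% at NF16 and later 99.5% at NF24. The other, NM_001016627.3, was at 0.793, 7.52 and 2.59 FPKM. Its FPKM was higher at NF16 than at NF10.5, though its share was lower at each later stage.

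The regulator spdef had its larger difference in the later step, not in the earlier one. It was at 2.48 FPKM at NF10.5, 3.12 FPKM at NF16 and 9.91 FPKM at NF24. As deposited, the gastrula and neurula values lie close together and the tailbud value stands above them. Its log2(FPKM + 1) difference was 0.24 in the earlier step and 1.41 in the later one. After median-of-ratios scaling these were 0.82, still under the threshold, and 1.33. The later difference was 0.88 with 5 added in place of 1 and 0.86 for its highest transcript, and so was not called under these settings. By level, spdef ranked 8942nd, 8602nd and 6080th among all genes.

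The 3 listed transcripts shared the spdef signal without a clear leader. NM_001078944.1 held 43.5% at NF10.5, XM_012965225.2 held 55.3% at NF16, and at NF24 these held 36.9% and 39.7%. The remaining one, XM_012965229.2, had 34.1%, 19.4% and 23.5%. At NF10.5 and NF16 each of these transcripts was below 2 FPKM, so the change of leader rests on low values. All of them were at their highest at NF24, at 3.65, 3.93 and 2.33 FPKM.

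**Figure D2:**
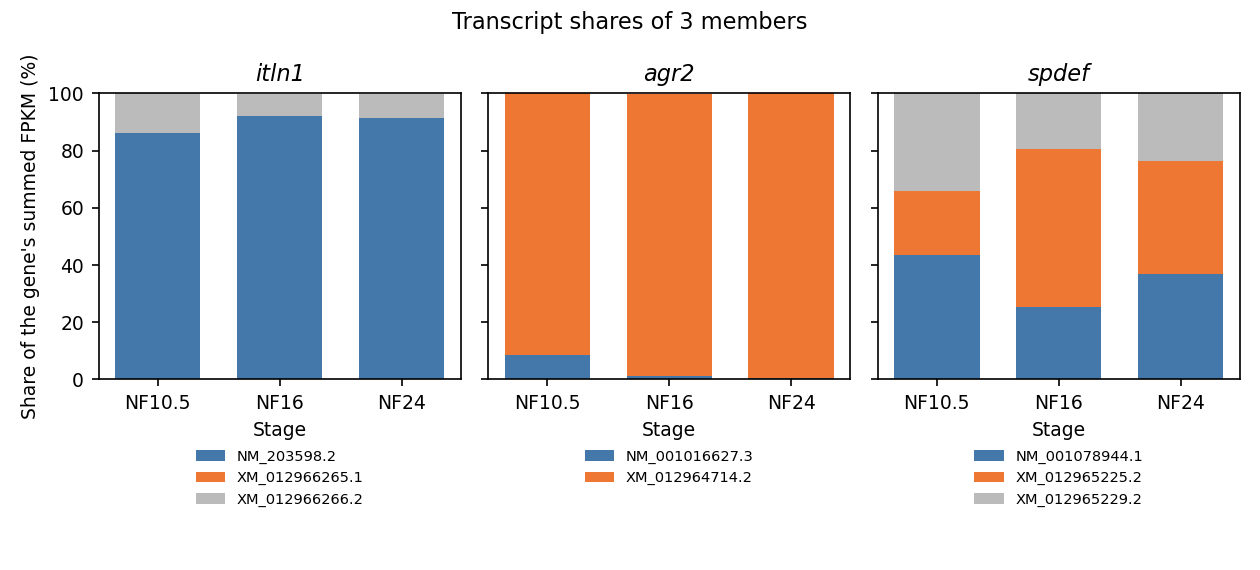
Share of each listed transcript in the summed FPKM of its gene (%), for the 3 members with more than 1 transcript, at each stage; each bar adds up to 100%. One transcript leads itln1 (86.3% to 92.1%) and agr2 (91.4% to 99.5%) throughout, whereas spdef is divided among 3.

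Set against the whole table, 6 of the 7 members compared were called higher at NF16 than at NF10.5, and 0 lower, where 20.9% of the 11771 genes compared were called higher. The members were chosen with these differences already known, and 3 of them pass the filter of 1 FPKM only through a later stage, so the count describes them and shows nothing more. Across all genes 39% were called lower in this step, and the median difference was -0.57. Median-of-ratios scaling moved that median to 0.15 and turned 2466 genes higher and 4586 lower into 3575 and 2418. None of the 6 members lost the call under any scaling. Ordered by difference, itln1 came 8th, otog 13th, itln2 16th, fcgbp 17th, msln 22nd and agr2 69th of the genes compared.

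In the step from NF16 to NF24, 3 of 7 members were called higher, namely itln1, itln2 and spdef, where 6.91% of genes were called higher and 4.84% lower. Between NF10.5 and NF24 all 7 were called higher, against 25.4% of genes. The differences over the whole course were 8.92 for itln2, 8.76 for itln1, 8.23 for msln, 8.13 for fcgbp, 8.07 for otog, 5.72 for agr2 and 1.65 for spdef. The last was 0.99 with 5 added in place of 1 and then not called. The steps share the NF16 value, so a high NF16 value raises one difference and lowers the other.

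**Figure D3:**
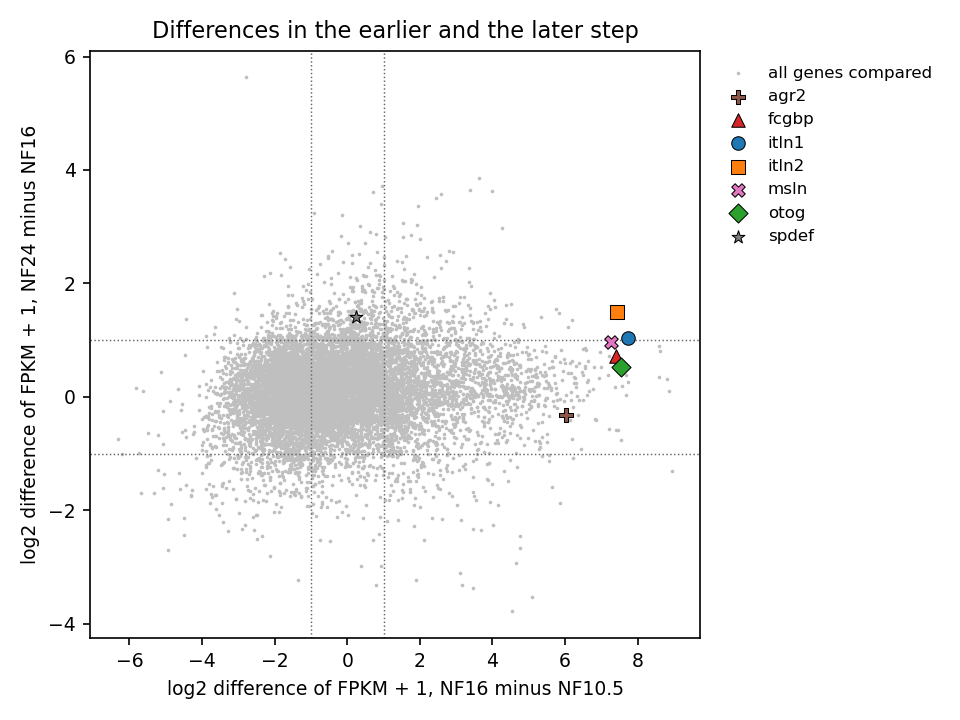
Difference in log2(FPKM + 1) between NF16 and NF10.5 (horizontal) and between NF24 and NF16 (vertical) for the 11771 genes compared (grey) and the 7 members among them; dotted lines mark the threshold of 1. The 6 abundant members lie at 6.03 or more on the horizontal axis, agr2 is the one of them below 0 on the vertical axis, and spdef is at 0.24 and 1.41.

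The tailbud level was only partly in place at neurula for most of these genes. At NF16, itln2 stood at 35.2% of its NF24 level, itln1 at 49.0%, msln at 51.3%, fcgbp at 60.2%, otog at 69.6% and agr2 at 124%. For spdef the value was 31.4%. Over all 1905 genes that had at least 10 FPKM at NF24 and were called higher there than at NF10.5, the median was 77.7%. Of these genes, 7.82% lay below itln2, 17.3% below itln1 and 89.2% below agr2.

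The 11 other mucus and goblet genes that met the same conditions had a median of 86.4%, from 38.3% to 135%. Markers of the other epidermal cell types had medians from 87.7% upward. Among the 12 ionocyte markers, which include the anion exchanger slc26a4 and carbonic anhydrase ca2, the median was 92.0% with a range of 53.0% to 208%. It was 87.7% for 7 multiciliated cell markers that met the same 2 conditions, such as the tektin tekt1, with a range of 67.8% to 148%. For 5 small secretory cell markers it was 113%, from 30.5% to 130%. Keratins and the uroplakin gene upk3b of the outer layer had 57.8% to 173% over 5 genes. The lectins itln1 and itln2 lay below every ionocyte and multiciliated cell marker that met these conditions, though ddc of the small secretory list, at 30.5%, was lower still. The margin was small, with itln1 at 49.0% and the ionocyte marker slc4a1 at 53.0%. The conditions rest on the NF24 level, which is also the divisor here. Of the small secretory markers compared, they left out scg3 (26.2%), pcsk1 (5.04%), chgb (50.3%) and cpe (81.1%). Multiciliated markers left out were mcidas (50.9 FPKM at NF16, 2.78 FPKM at NF24), ccno (923%), myb (173%) and foxj1 (168%). All of these multiciliated markers were lower at NF24 than at NF16, so the median of 87.7% is of the remaining markers only. The outer layer list lost krt18 (142%). The members were chosen with their values known, so the comparison is a description. No test of these differences was possible with 1 value per stage.

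**Figure D4:**
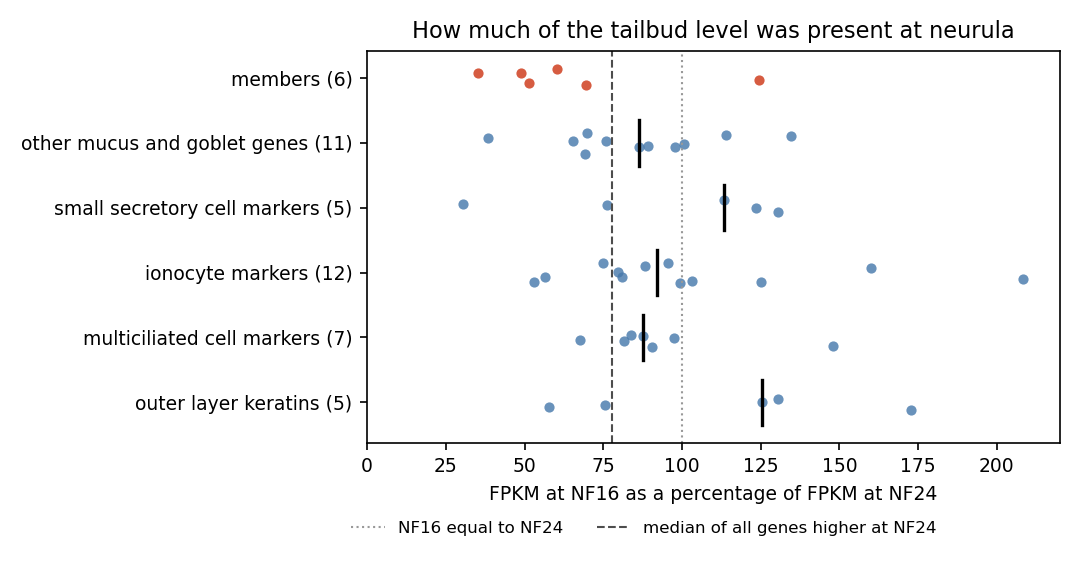
FPKM at NF16 as a percentage of FPKM at NF24 for genes with at least 10 FPKM at NF24 and called higher there than at NF10.5; each point is a gene, black bars are list medians and the dashed line is the median of all such genes (77.7%). Of the 6 members shown, 5 lie between 35.2% and 69.6%, and agr2 is at 124%.

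Markers of ionocytes, multiciliated cells and small secretory cells and the outer keratins were also mostly higher at NF16 than at NF10.5. In that step 20.9% of all genes compared were called higher. Summed FPKM of the ionocyte list was 92.5, 1252 and 1407 at the 3 stages, that of the multiciliated list 103, 3575 and 2841, and that of the small secretory list 5.46, 515 and 545. Most of the multiciliated sum at the later stages was tuba1a, at 2287 FPKM at NF16 and 1545 FPKM at NF24. Between these stages tekt1, tekt2, spag6, dnah9, odf3 and efhc2 of that list had higher FPKM at NF24. Lower at NF24, besides tuba1a, were foxj1, mcidas, ccno and myb. Every listed ionocyte gene and 10 of 11 multiciliated genes were called higher at NF16, with median differences of 5.57 and 6.24. Of the small secretory markers, 6 of 9 compared were called higher, with a median of 2.54, including slc18a1 at 7.19, slc18a2 at 6.21, chga at 5.40 and foxa1 at 4.95. The genes otogl, scg2 and pcsk2 of that list were below 1 FPKM at all stages. Of its genes compared, all but foxa1 and chga were below 1 FPKM at NF10.5. So were the ionocyte genes dmrt2, atp6v1b1, atp6v1c2, atp6v0a4, slc26a4 and ca2 and the multiciliated genes tekt1, spag6 and efhc2. Such genes passed the filter of 1 FPKM only through a later stage and could not be called lower at NF16. The counts of these 3 lists are therefore a description. Of the outer layer list, 6 of 6 genes compared, upk3b among them, were called higher, with krt19 at 6.96, krt5.7 at 4.63, krt at 4.38 and krt8 at 3.19. Its keratins krt5.6, krt5.5 and krt5.2 had at most 0.213 FPKM at any stage and were not compared. The part of cell type proportions in the levels of the 8 genes was not tested.

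Other genes of mucus making and release were described from a list of 51, of which 29 were in the table and 19 were compared. At NF16, 13 of these were called higher than at NF10.5 and 1 lower, with a median difference of 1.50 against -0.57 for all genes. The shares over all genes compared were 20.9% higher and 39% lower. Of the genes compared, agr3, galnt12, tmprss2, creb3l1 and fut2 were below 1 FPKM at NF10.5 and could not be called lower. The 4 genes with the largest differences in any comparison were rab3d, rab27a, capn8 and agr3. The vesicle GTPase genes rab3d, at 2.10, 155 and 225 FPKM, and rab27a, at 7.94, 238 and 267 FPKM, act in the release of secretory granules. The calpain protease gene capn8, known from mucous cells of the mouse stomach, was at 14.7, 410 and 419 FPKM. All 4 genes, like otog and fcgbp, had most of their gain in the earlier step.

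Between NF16 and NF24, 3 of the 19 genes were called higher and 0 lower (all genes: 6.91% and 4.84%), named here after their values were seen. They were galnt12, which starts O-linked sugar chains on mucins, at 10.8 and 28.1 FPKM, the serine protease gene tmprss2 at 1.58 and 8.82 FPKM, and the chloride channel gene ano1 at 4.81 and 32.65 FPKM. Of these, ano1 was also the gene called lower in the earlier step, from 19.8 FPKM at NF10.5. In all, 10 list members stayed below 1 FPKM at all stages, and the trefoil gene tff1, whose product is secreted with mucus in mammals, was listed at 0 at all stages.

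**Figure D5:**
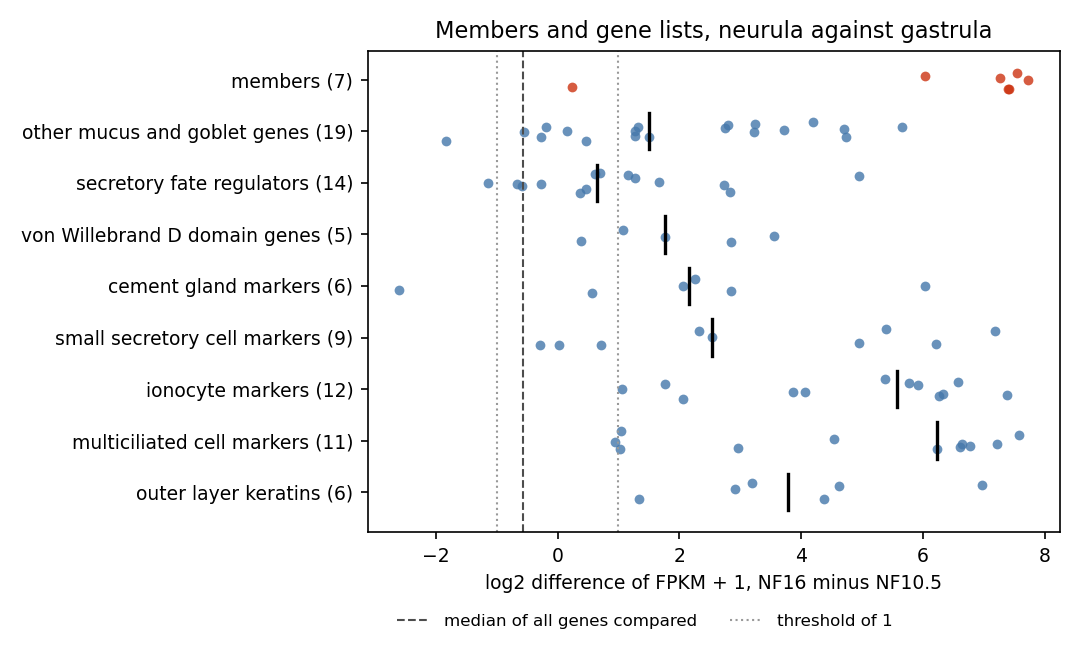
Difference in log2(FPKM + 1) between NF16 and NF10.5 for the members compared (red) and for the genes of each list that were compared (blue, number in brackets); black bars are list medians, the dashed line is the median of all genes compared (-0.57) and dotted lines mark the threshold of 1. The 6 abundant members lie at 6.03 or more and spdef at 0.24, while the other mucus and goblet genes spread around a median of 1.50. Some genes are on more than 1 list, agr2 among them.

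Genes listed as regulators of secretory cell fate showed a wider range of courses. The list is broad and also holds genes such as the stress sensor atf6. Of 14 compared, 6 were called higher and 1 lower at NF16, with a median difference of 0.65. Among all genes compared, 20.9% were called higher and 39% lower in this step. The listed genes elf3, ehf, gfi1, creb3l1, foxa2 and runx1 were below 1 FPKM at NF10.5 and could not be called lower. The regulator called lower was klf4, at 7.91, 3.04 and 3.63 FPKM. The most abundant of the list at each stage was xbp1, at 227, 143 and 101 FPKM. It was called lower over the whole course, with a difference of -1.17. The forkhead gene foxa1, which specifies small secretory cells in Xenopus, was at 1.12, 64.6 and 49.5 FPKM. The epithelial ETS factor genes elf3 and ehf, of the same protein family as Spdef, were at 0.0133, 5.74 and 15.8 FPKM, and at 0.00667, 6.17 and 7.04 FPKM. Unlike spdef, both were called higher in the earlier step, by 2.73 and 2.83. The stress sensor gene atf6 of the endoplasmic reticulum was at 10.07, 34.2 and 42.3 FPKM. Between NF16 and NF24, 3 regulators were called higher and 1 lower (all genes: 6.91% and 4.84%), named here after their values were seen. These were atoh1 (1.55), elf3 (1.31), gfi1 (1.25) and, lower, klf5 (-1.82).

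A list drawn up for von Willebrand D domain genes other than the members gave few values of any size. It had 17 genes, 11 of them in the table and 5 compared. At NF16, 4 of these were called higher and 0 lower (all genes: 20.9% and 39%), with a median difference of 1.76. All 5 were below 1 FPKM at NF10.5 and passed the filter of 1 FPKM only through a later stage. None of them could be called lower in this step, so the count is a description. The highest genes of the list were the BMP-binding bmper, at 0.543, 17.2 and 10.8 FPKM, and vwde, at 0.0233, 6.37 and 6.90 FPKM, with vwf and kcp at or below 2.56 FPKM. At NF24 the 11 genes summed to 22.9 FPKM, whereas otog alone was at 436 FPKM. One of the 5 genes compared, vit, has no domain of this type known for its mammalian product and was listed in error.

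Genes next to the members on the chromosome took varied courses. For the 5 members matched by accession, the nearest 2 protein-coding genes on either side were read from the RefSeq gene order, and 10 such genes other than members were compared. At NF16, 5 were called higher and 4 lower, where 20.9% of all genes compared were called higher and 39% lower. Near the intelectin pair, which lie side by side, the RNase P subunit gene rpp30 was lower, from 60.6 to 7.96 FPKM, and kif20b had 38.2 and 18.5 FPKM. Beside agr2, bzw2 was lower, from 28.02 to 2.19 FPKM, whereas agr3, the tetraspanin gene tspan13 (6.65 and 69.4 FPKM) and ahr (1.13 and 4.34 FPKM) were higher. Near fcgbp the unnamed LOC100492852 was at 0.513, 136 and 245 FPKM, a course close to that of fcgbp. Whether reads of this locus and fcgbp overlap could not be checked.

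The genes nearest in course were found by the distance between their 2 successive log2(FPKM + 1) differences, over 3 stages, among 7516 named genes of at least 10 FPKM. For itln1 they were fcgbp (distance 0.45), msln (0.47) and otog (0.54), all members, which were chosen with these differences known. Loci without a gene symbol were left out of the search. One of them, LOC100145611, had differences of 7.67 and 0.56, near those of otog (7.55 and 0.52) and itln1 (7.73 and 1.03). Among the named genes, nearest to otog were fcgbp (0.26), the cilium gene odf3 (0.33) and the ionocyte gene slc26a4 (0.38). Nearest to agr2 were the sugar transporter gene slc2a12 (0.06), with 0.12, 70.4 and 54.9 FPKM, the monoamine transporter gene slc18a2 (0.22) and the zinc transporter gene slc30a8 (0.27). For spdef, among 9685 genes of at least 2 FPKM, bhlhe40 (0.03) and bcl10 (0.05) were the nearest. The 1 added to each FPKM shapes these distances. At NF10.5 agr2 was at 9.27 FPKM, but slc18a2 was at 0.273 and slc30a8 at 0.207 FPKM. Likewise spdef was at 2.48 FPKM, but bhlhe40 was at 0.627 and bcl10 at 0.07 FPKM. Near distances here therefore do not mean equal ratios of FPKM between stages. With 3 stages, genes of other cell types can come as near as members do, and the distances are a description.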

How the data were processed

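Per the labels' protocols, total RNA of manually dissected animal caps was freed of ribosomal RNA before strand-specific paired-end library preparation. The submitters' processing notes list STAR 2.4.2a and RSEM 1.3.0, with no roles or settings. The genome build is not given in the sources used here. The authors deposited FPKM per transcript, and the file headers give a single column for each stage. All 83506 values above 0 lie within 0.0001 of a multiple of 0.01 divided by 3, as means of 3 rounded values do, so each is read as the authors' mean over the 3 labelled replicates. Depth and replicate spread are unknown, no interval can be given, and the limma fit foreseen for replicate columns was not possible.

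Transcript values were added up per gene and compared as log2(FPKM + 1) for the 11771 genes with at least 1 FPKM at 1 or more stages, with a threshold of 1 in size (Python 3.11.15, pandas 2.3.3, numpy 2.4.6). The steps were run on simulated data with planted shifts larger than the threshold and an assumed noise. Such a run checks the code only, since the replicate spread of these data is unknown. Named genes are the 8 members, the 3 nearest in course to 4 of them, up to 4 per list with the largest differences, and relatives by name; not every gene this rule names is reported here. A RefSeq gene table (UCB_Xtro_10.0) was used for names and neighbours only; 15977 of 17647 genes were found in it. Members and lists were chosen with earlier results of these data known. Other settings tried were pseudocounts of 0.1 and 5, filters of 0 and 5 FPKM, 3 scalings and the highest transcript.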

Additional observations from a re-analysis of the deposited data

How the results depend on the processing

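Of 132 differences of the 8 genes recomputed under a setting that can change them, 124 kept their direction and their side of the threshold and 0 reversed; the filters cannot change the difference of a gene. The others were spdef (later step, with a pseudocount of 5 or its highest transcript, and over the whole course with a pseudocount of 5), itln1 and msln in the later step under a scaling, as given above, and muc2, which with a pseudocount of 0.1 came to -1.36 at NF16 and -1.63 at NF24 against NF10.5, from values below 0.3 FPKM. Differences of the 6 abundant genes from NF10.5 lay between 5.26 and 9.80 under every setting, far above the threshold. Their part in the count of 124 was therefore nearly fixed. The 132 also include muc2, which was not compared. In the later step 3 members were called, but 2 with a pseudocount of 5, median-of-ratios scaling or the highest transcript. With TPM or quantile normalization 4 were called. Only itln2 was called in this step under every setting. Over all genes, the later step called 1383 genes, 2323 with a pseudocount of 0.1 and 541 with 5. Median-of-ratios scaling gave 653 higher and 775 lower in that step, quantile normalization 641 and 790, against 813 and 570 as deposited. Over the whole course median-of-ratios scaling gave 3954 and 2730, and quantile normalization 3074 and 3804, against 2984 and 4342 as deposited. The other settings for transcript shares could not change them, since rescaling a stage leaves its shares as they are and no member's transcript is repeated. No paired analysis was possible because the table holds 1 value per stage, and for the same reason no replicate could be left out. Depth, and so the precision of low values such as those of muc2 and spdef, is unknown.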
